A study of Homo sapiens with 4 samples.

Results

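STAT and IRF proteins are the transcription factors through which cells answer interferons and other cytokines. The mRNA of 7 of them, STAT2, STAT3, STAT6, IRF1, IRF2, IRF3 and IRF7, was compared between 786-O cells with and without restored VHL. They were taken by gene symbol from a list of 8 names, and they are 7 of the 12912 genes in the deposited count table. IRF9, the remaining name, was not analysed here. 786-O is a human clear cell renal cell carcinoma (ccRCC) line without functional VHL, the substrate receptor of an E3 ubiquitin ligase. The comparison was between 2 RNA-seq libraries of each of its sublines. 786-O-Ctrl has no functional VHL, and 786-O-VHL re-expresses VHL from a retroviral vector that encodes the HA-tagged human protein. The library labels name the triple-reporter (TR) versions of both, which stably carry GFP, luciferase and thymidine kinase. The labels name no interferon or other cytokine treatment. Each group comes from 1 subline, and no source used here says whether its libraries came from separate cultures, so the p-values measure the spread between these libraries, which may be technical.

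As background, STAT proteins wait in the cytoplasm until Janus kinases bound to a cytokine receptor phosphorylate them, after which they pair and enter the nucleus. STAT2 and IRF9 belong to the complex that type I interferons activate, and this complex binds the interferon-stimulated response element (ISRE). STAT3 pairs with itself after IL-6 type cytokines and STAT6 after IL-4 and IL-13, and these pairs bind sites of the GAS type, named for interferon gamma. Among the IRF proteins, IRF1 activates genes with an ISRE and IRF2 competes for the same sites. IRF3 and IRF7 are activated by kinases downstream of sensors of foreign nucleic acid and switch on interferon genes.

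Promoter sequence is shown because genes for IRF and STAT proteins are themselves known targets of STAT proteins. The RefSeq table used held a window for 4 of the 7 members, IRF1, STAT2, STAT3 and STAT6, on GRCh38.p14. IRF2, IRF3 and IRF7 had no entry in it. The 250 bases before the annotated transcription start are printed 5′ to 3′ on the gene's strand, which is the minus strand for all 4, and capitals mark matches to the GAS and kappa B letters given after the windows.
IRF1 (chr5:132490774-132491023): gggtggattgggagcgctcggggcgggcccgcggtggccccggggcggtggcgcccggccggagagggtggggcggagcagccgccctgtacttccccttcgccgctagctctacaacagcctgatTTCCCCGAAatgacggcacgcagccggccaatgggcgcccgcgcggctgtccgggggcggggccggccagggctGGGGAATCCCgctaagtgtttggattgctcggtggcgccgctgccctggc
STAT2 (chr12:56360108-56360357): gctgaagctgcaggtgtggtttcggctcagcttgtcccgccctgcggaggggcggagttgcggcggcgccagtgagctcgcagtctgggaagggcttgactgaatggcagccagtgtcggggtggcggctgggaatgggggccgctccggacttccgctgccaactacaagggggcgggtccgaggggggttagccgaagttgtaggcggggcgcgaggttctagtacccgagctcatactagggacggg
STAT3 (chr17:42388443-42388692): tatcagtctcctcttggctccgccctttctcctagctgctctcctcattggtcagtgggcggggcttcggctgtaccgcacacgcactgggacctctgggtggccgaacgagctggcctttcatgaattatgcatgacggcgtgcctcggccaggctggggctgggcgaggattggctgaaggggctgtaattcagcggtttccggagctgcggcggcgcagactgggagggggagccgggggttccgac
STAT6 (chr12:57110290-57110539): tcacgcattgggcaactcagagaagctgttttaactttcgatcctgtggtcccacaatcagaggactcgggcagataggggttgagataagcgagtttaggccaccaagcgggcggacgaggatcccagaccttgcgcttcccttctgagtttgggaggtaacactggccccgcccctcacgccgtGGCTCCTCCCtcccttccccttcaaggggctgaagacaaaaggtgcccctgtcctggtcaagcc

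The letters searched on both strands were GAAA, any 2 bases and GAAA for an ISRE, TTCNNNGAA for a GAS, GGGA, any 4 bases and CC for a kappa B site, and ACGTG or GCGTG for the core that HIF binds. Only the IRF1 window, among the 4, held a GAS match, TTCCCCGAA, which lies from -124 to -116 counted back from -1, the base before the start. A GAS match was present in 6.57% of the 35116 windows of this length in the table. IRF1 also held a kappa B match, GGGGAATCCC, from -50 to -41, and the other kappa B match was GGCTCCTCCC in STAT6 from -64 to -55. Such a match was common, at 22.6% of all windows. None of the 4 windows held an ISRE match, which 3.02% of all windows had, or ACGTG, which 18.5% had. GCGTG occurred 1 time in IRF1, 2 times each in STAT3 and STAT6 and 0 times in STAT2, against 32.2% of all windows with at least 1, and these stand in lower case above. These matches describe letters in the windows only.

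Total counts were 22141263 and 15714166 for 786-O-Ctrl, whose libraries are called here the deeper and the shallower one, and 2807779 and 16114120 for replicates 1 and 2 of 786-O-VHL. Levels are given as CPM, counts scaled to a common library total with edgeR's TMM factors. The limit that a count of 0 allows, 3 counts, was 1.02 CPM in the shallowest library and between 0.142 and 0.199 CPM elsewhere, for counting error only. The VHL gene had 903 and 661 counts before restoration and 525 and 2748 after it, or 42.9 and 43.9 CPM against 178 and 163 CPM. All 7 genes listed as renal markers had counts in every library, with PAX8, a kidney lineage factor, between 137 and 277 CPM. Their summed level was 3300 to 3311 CPM in 786-O-Ctrl and 1943 to 1944 CPM in 786-O-VHL. Most of that difference was VIM, at 1669 and 1699 CPM against 751 and 709 CPM, so the sum is no measure of epithelial identity. PAX8, PAX2 and KRT8 were also lower (log2 fold changes -0.90, -0.40 and -0.56), EPCAM was higher (1.20, edgeR FDR = 4.71e-05), and KRT18 and CDH2 were not called. Of 15 leukocyte markers, CD14 and CSF1R had a row, and their summed level was 13.7 to 14.2 CPM in 786-O-Ctrl and 2.67 to 4.41 CPM in 786-O-VHL, nearly all of it CSF1R in 786-O-Ctrl (log2 fold change -2.35, edgeR FDR = 2.45e-10). The part of either marker list in the results was not tested.

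In the subline with restored VHL, some STAT and IRF mRNAs were higher and others lower. Whether VHL or another difference of the sublines accounts for this was not tested. Among the 7 members, 4 were higher in 786-O-VHL (IRF1, IRF7, STAT2 and IRF2), 2 were lower (STAT6 and IRF3), and STAT3 did not pass the test, at an edgeR false discovery rate (FDR) of 0.05. All 7 passed the filter on low counts. Without the shallow 786-O-VHL replicate 1 the counts were also 4 higher and 2 lower. The background was high, since 64.5% of the 12335 genes tested passed this FDR, 32.6% as higher and 31.9% as lower, so the number of members called says little about them as a group. Both libraries of one subline lay outside those of the other for all 7 members, with 786-O-VHL above for 5 and below for 2, as they did for 80.0% of all genes, 40.8% above and 39.2% below. The median log2 fold change (786-O-VHL over 786-O-Ctrl) was 0.69 over the members and 0.017 over all genes. Only IRF1 and IRF7, among the 7, changed more than 2-fold, a size that 17.5% of all genes passed at this FDR, 10.0% as higher. No member passed 4-fold in this fit, as 4.46% of all genes did at an FDR of 0.01, 2.92% as higher. With 2 libraries against 2 an exact permutation test cannot go below a two-sided p of 0.333, so the FDR values rest on the spread that edgeR shares between genes.

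**Figure D1:**
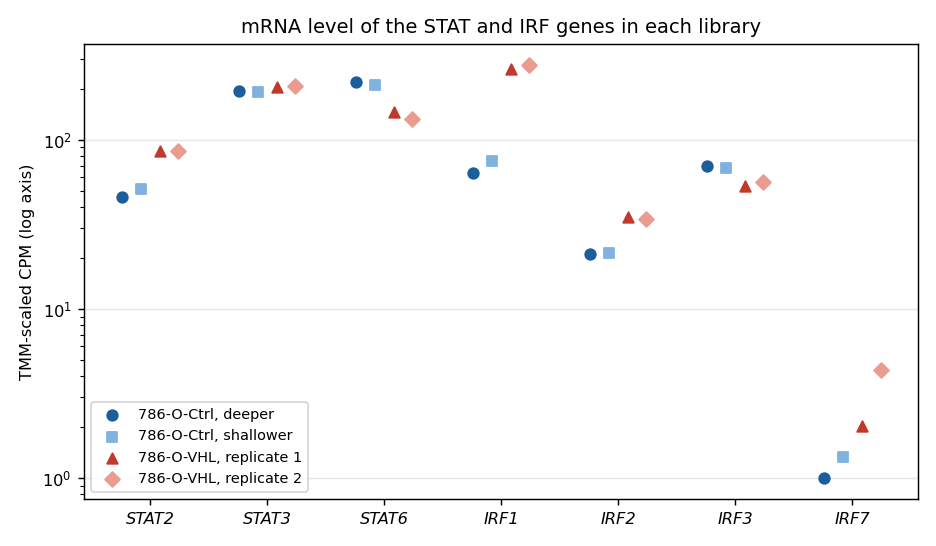
Each point is the level of 1 gene in 1 library, in TMM-scaled CPM on a log axis, for the 7 STAT and IRF genes. IRF1 lies between 63.7 and 74.7 CPM in both 786-O-Ctrl libraries and between 261 and 278 CPM in 786-O-VHL, STAT3 points lie almost level, and IRF7 sits between 0.997 and 1.33 CPM in 786-O-Ctrl.

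IRF1, the activator that interferon gamma strongly induces, rose most. The 786-O-Ctrl libraries had 1342 and 1124 counts and those of 786-O-VHL 770 and 4673, or 63.7, 74.7, 261 and 278 CPM. The 786-O-VHL libraries lay close together and well above 786-O-Ctrl, despite the low depth of replicate 1. The log2 fold change came to 1.98 ± 0.0725 (SE, 95% interval 1.83 to 2.13, edgeR FDR = 4e-19), a 3.94-fold increase. It lay just past 4-fold with library totals alone (log2 2.11), without the shallower 786-O-Ctrl library (2.08) and without 786-O-VHL replicate 1 (2.01). In the main setting 97.0% of all genes tested had a lower log2 fold change. IRF1 (ENSG00000125347.14) is a minus-strand gene of chromosome 5, and its canonical transcript of 10 exons runs from 131817301 to 131826465 in GRCh37. IRF1-AS1, a noncoding RNA on the opposite strand, covers 22.9% of the annotated IRF1 exon bases. The use of strand in counting is not given in the sources used here, so reads from either strand cannot be told apart.

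IRF2, the competitor of IRF1, rose as well but by less. Its 446 and 321 counts (786-O-Ctrl) and 103 and 572 counts (786-O-VHL) gave 21.2, 21.3, 34.9 and 33.97 CPM, with little spread within either subline. The log2 fold change came to 0.69 ± 0.108 (SE, edgeR FDR = 2.82e-06). IRF2 (ENSG00000168310.11) occupies chromosome 4 from 185306856 to 185395712 (GRCh37, minus strand), and no annotated gene overlaps its exons. The ratio of IRF1 to IRF2 within a library does not depend on the scaling between libraries. Per kilobase of canonical transcript it was 1.91 and 2.22 without VHL and 4.75 and 5.19 with it, and the libraries of the sublines did not overlap. The 95% intervals of the log2 fold changes of IRF1 and IRF2 (0.47 to 0.91) did not overlap either.

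STAT2, the STAT used by type I and type III interferons, was the STAT member that rose. The 786-O-Ctrl libraries had 970 and 774 counts and those of 786-O-VHL 254 and 1434, or 46.1, 51.4, 86.2 and 85.2 CPM. The log2 fold change came to 0.82 ± 0.0762 (SE, 95% interval 0.66 to 0.97, edgeR FDR = 2.49e-10). This interval overlapped that of IRF2. STAT2 (ENSG00000170581.14) occupies chromosome 12 from 56735381 to 56753987 (GRCh37, minus strand), on the same chromosome as STAT6. The per-length ratio of STAT2 to STAT3 was 0.264 and 0.299 without VHL and 0.468 and 0.458 with it, a mean 1.65 times as high.

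STAT6, which carries IL-4 and IL-13 signals, fell. Its 4633 and 3180 counts (786-O-Ctrl) and 431 and 2231 counts (786-O-VHL) gave 220, 211, 146 and 132 CPM, and both 786-O-VHL libraries lay below both of 786-O-Ctrl. The log2 fold change came to -0.65 ± 0.0674 (SE, 95% interval -0.79 to -0.52, edgeR FDR = 1.7e-09). STAT6 (ENSG00000166888.12) occupies chromosome 12 from 57489191 to 57525922 (GRCh37, minus strand), and neighbors on the opposite strand, NAB2 and LRP1, cover 0.945% and 0.808% of its exon bases.

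STAT3, the factor of IL-6 type cytokines, was measured at high depth and moved little. The 786-O-Ctrl libraries had 4100 and 2892 counts and those of 786-O-VHL 606 and 3494, or 195, 192, 206 and 207 CPM. The groups did not overlap, but the log2 fold change of 0.096 ± 0.0628 (SE, edgeR FDR = 0.184) did not pass, and its 95% interval ran from -0.033 to 0.22. With library totals in place of TMM factors the value was 0.23 (edgeR FDR = 0.00196), a scaling that also raised the median of all genes by 0.13. STAT3 (ENSG00000168610.14) occupies chromosome 17 from 40465342 to 40540558 (GRCh37, minus strand), with no overlapping gene. STAT5B and STAT5A, which lie next to it on chromosome 17, did not pass either, with log2 fold changes of -0.080 and 0.21 (edgeR FDR = 0.408 and 0.647). STAT5A had between 7 and 38 counts a library, and STAT5B on the opposite strand covers 6.5% of its exon bases.

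IRF3, which is present before any stimulus and is activated by phosphorylation, fell slightly. The 786-O-Ctrl libraries had 1469 and 1024 counts and those of 786-O-VHL 157 and 951, or 69.8, 68.1, 53.3 and 56.5 CPM. The log2 fold change came to -0.31 ± 0.0755 (SE, 95% interval -0.46 to -0.15, edgeR FDR = 0.00079), a fall that no longer passed after each library was thinned to the depth of the shallowest (edgeR FDR = 0.0618). IRF3 (ENSG00000126456.16) occupies chromosome 19 from 50162826 to 50169132 (GRCh37, minus strand). BCL2L12, a gene on the opposite strand, covers 19.3% of the IRF3 exon bases, and it fell from 42.7 to 20.3 CPM (mean, n = 2 each), a log2 fold change of -0.96 (edgeR FDR = 8.97e-09). Its part in the IRF3 value was not tested.

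IRF7, the interferon-inducible factor that amplifies interferon production, had the fewest counts of the members and the least certain level. The 786-O-Ctrl libraries had 21 and 20 counts and those of 786-O-VHL 6 and 73, or 0.997, 1.33, 2.04 and 4.34 CPM. Both 786-O-VHL libraries lay above 786-O-Ctrl, but the exact Poisson 95% interval of replicate 1, 0.747 to 4.43 CPM, covered both 786-O-Ctrl values. The log2 fold change came to 1.74 ± 0.36 (SE, 95% interval 1.00 to 2.48, edgeR FDR = 0.000124), and without 786-O-VHL replicate 2 it was 0.82 (edgeR FDR = 0.404). The interval overlapped that of IRF1. The IRF7 row carries the identifier ENSG00000276561.4, which is absent from the GRCh37 annotation used, so no position or length is given. Other symbols in the table have several identifiers, and reads of near-identical copies can be split between them, which makes the IRF7 level uncertain.

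**Figure D2:**
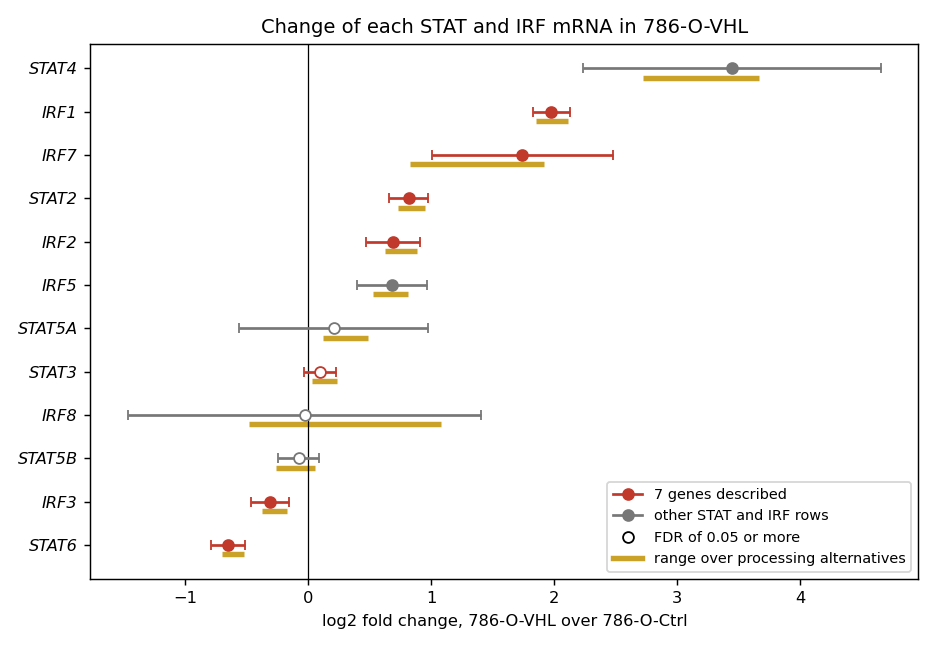
Log2 fold changes of the 7 members (red) and of 5 other STAT and IRF genes (grey), with 95% intervals from edgeR, filled where the FDR was under 0.05. Gold bars span the values under the processing alternatives, and for IRF1 they run from 1.85 to 2.11 while those of IRF8 and STAT5B cross 0.

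Among the other STAT and IRF genes described, STAT4 and IRF5 were called higher in 786-O-VHL. STAT4, which IL-12 activates in lymphocytes, had 3 counts in each 786-O-Ctrl library and 7 and 30 in 786-O-VHL, with a log2 change of 3.44 ± 0.591 (SE, edgeR FDR = 1.07e-05). It passed the filter on low counts only through 786-O-VHL, where its level was 2.37 and 1.78 CPM, so its call is no evidence of its own. The ratio of pooled counts scaled by library was 11.3, with an exact binomial 95% interval of 4.71 to 32.6. That interval covers counting error only and leaves out the spread between libraries. It comes from the same counts that passed STAT4 through the filter, so it adds no support. IRF5, which acts downstream of Toll-like receptors, rose from 11.8 and 14.4 CPM to 20.7 and 20.8 CPM, with a log2 change of 0.68 ± 0.14 (SE, edgeR FDR = 0.00011). IRF8, a factor of myeloid and B cells, had between 3 and 10 counts a library, with a log2 change of -0.031 ± 0.701 (SE, edgeR FDR = 0.973), whose sign turned under several alternatives.

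The order of the IRF genes changed between the sublines. Levels were divided by the canonical transcript length to compare genes. In 786-O-Ctrl the order was IRF3 at 43.7 and 42.7 CPM per kb, IRF1 at 17.9 and 21.0, and IRF2 at 9.38 and 9.45, with no overlap between neighbors. In 786-O-VHL IRF1 led at 73.5 and 78.1 CPM per kb, ahead of IRF3 at 33.4 and 35.4 and IRF2 at 15.5 and 15.1. As a share of the 5 IRF genes with a length, IRF1 was 23.8% and 26.8% without VHL and 56.6% and 57.5% with it. The share of IRF3 went from 58.1% and 54.5% to 25.7% and 26.1%, while that of IRF2 stayed between 11.1% and 12.5%. IRF1 also led IRF3 in 786-O-VHL when all annotated exons were used as the length, at 48.9% and 49.7% against 32.2% and 32.7%.

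Among the STAT genes with a value here, STAT6 and STAT3 changed places. In 786-O-Ctrl STAT6 stood at 55.5 and 53.3 CPM per kb, above STAT3 at 39.6 and 39.1 and STAT2 at 10.5 and 11.7. STAT5B, at 11.3 and 10.8 CPM per kb there, overlapped STAT2. In 786-O-VHL STAT3 lay at 41.8 and 42.2 CPM per kb and STAT6 at 36.9 and 33.4, so that the per-length ratio of STAT3 to STAT6 went from 0.713 and 0.732 to 1.13 and 1.26. As a share of the summed per-length level of STAT2, STAT3, STAT4, STAT5A, STAT5B and STAT6, STAT2 went from 8.91% and 10.1% to 17.9% and 18.1%. With all annotated exons as the length, STAT6 stayed above STAT3 in 786-O-VHL replicate 1, at 38.2% against 34.995%, but not in replicate 2, at 35.6% against 36.3%.

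**Figure D3:**
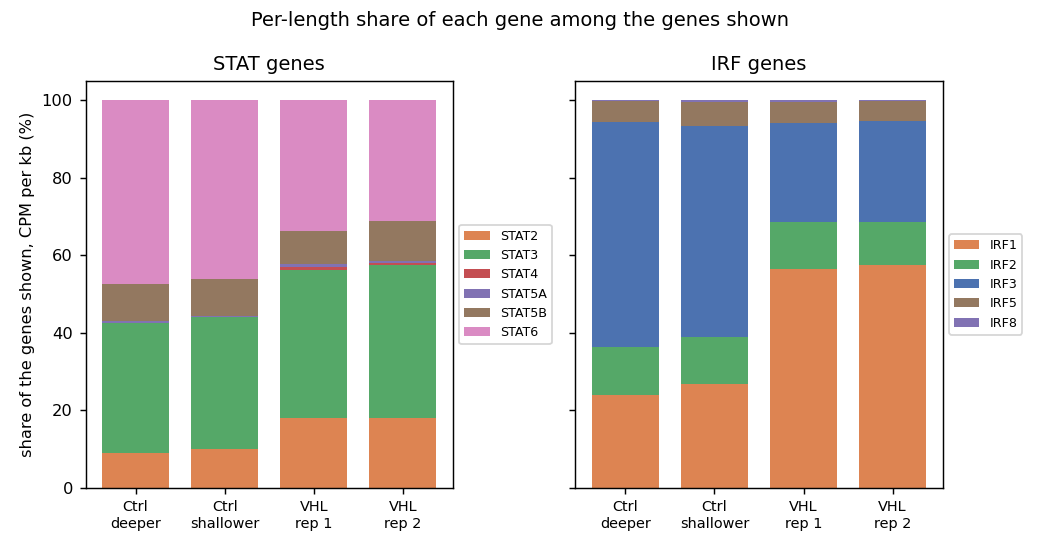
Stacked bars give, for each library, the share of each gene in the summed CPM per kb of canonical transcript of the genes shown, 6 STAT genes (STAT2 to STAT6) on the left and the 5 IRF genes with a known length on the right. IRF1 takes 23.8% to 26.8% in 786-O-Ctrl and 56.6% to 57.5% in 786-O-VHL.

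The kinases and receptors upstream of the STAT proteins changed unevenly. Of the 4 Janus kinases, 3 were higher and 1 was lower, where 64.5% of all genes were called, 32.6% as higher and 31.9% as lower. The 3 include JAK3 and JAK1, whose limits are given below. JAK2, the kinase of interferon gamma and many cytokine receptors, rose from 12.3 and 13.2 CPM to 29.9 and 26.0 CPM, with a log2 change of 1.08 ± 0.129 (SE, edgeR FDR = 2.86e-08). JAK3, the kinase of lymphocyte cytokine receptors, had 4 and 9 counts without VHL and 11 and 39 with it (log2 fold change 2.82, edgeR FDR = 2.17e-05). It passed the filter on low counts only through 786-O-VHL, so its call is no evidence of its own, and the value was 2.14 without the deeper and 3.75 without the shallower 786-O-Ctrl library. JAK1, which interferon and IL-6 type receptors share, had a log2 fold change of 0.16 (edgeR FDR = 0.0194), a call that was lost in 4 of the alternatives. TYK2, which serves type I interferon receptors, fell by 0.25 on the log2 scale (edgeR FDR = 0.00197) but not past the test with library totals alone or after thinning.

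Of 13 receptor chains, 3 were higher and 0 were lower, beside 32.6% and 31.9% of all genes, and the median log2 fold change was -0.055. IFNGR1, the ligand-binding chain for interferon gamma, rose from 38.8 and 37.6 CPM to 67.8 and 61.3 CPM (log2 fold change 0.72, edgeR FDR = 1.63e-08). IL6R, the IL-6 receptor, had a log2 fold change of 1.04 (edgeR FDR = 0.000376), which was 0.56 without 786-O-VHL replicate 2 (edgeR FDR = 0.303). IFNGR2 had 0.37 (edgeR FDR = 0.0437) and lost its call in 5 of the alternatives. The type I interferon receptor chains IFNAR1 and IFNAR2, singled out after their values were seen, did not pass, with log2 fold changes of -0.13 and -0.10 (edgeR FDR = 0.165 and 0.794).

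Genes that restrain STAT signaling were mixed, with 6 of 17 higher and 3 lower, beside 32.6% and 31.9% of all genes. The share that was higher was near the background, and the median log2 fold change was 0.17. The suppressors SOCS1, SOCS2 and SOCS3, which STAT proteins induce as feedback, rose most in this list. SOCS1 went from 5.41 and 4.79 CPM to 19.7 and 18.1 CPM, with a log2 change of 1.84 ± 0.171 (SE, edgeR FDR = 2.16e-10). SOCS2 and SOCS3 had log2 fold changes of 1.63 and 1.27 (edgeR FDR = 7.14e-13 and 3.07e-12). PIAS2 and PIAS3, SUMO ligases that bind STAT proteins, fell by 0.66 and 0.60 on the log2 scale (edgeR FDR = 3.74e-06 and 8.68e-06). SOCS5 had a log2 fold change of -0.28 (edgeR FDR = 0.0197) and lost its call in 7 of the alternatives.

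Upstream of the IRF proteins, 7 of 19 sensors, adaptors, kinases and corepressors were higher and 6 were lower. Both shares were near the 32.6% and 31.9% of all genes, and the median log2 fold change was 0.018. The RNA sensors RIG-I (listed as DDX58) and IFIH1, which are also interferon-inducible, rose by log2 fold changes of 1.51 and 1.35 (edgeR FDR = 1.46e-12 and 8.28e-11). IRF2BPL, a paralog of the IRF2 binding proteins, went from 73.0 and 62.1 CPM to 207 and 209 CPM (log2 fold change 1.61, edgeR FDR = 2.76e-17). IKBKE, a kinase that phosphorylates IRF3 and IRF7, fell by 0.72 on the log2 scale (edgeR FDR = 1.69e-05). The signaling kinase IRAK1 fell by 0.72 and the adaptor TICAM1 by 0.53 (edgeR FDR = 4.23e-10 and 7.98e-05).

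Genes listed as ones that these factors switch on were mostly higher. The lists were chosen with earlier results of these data known, so an excess over all genes is no independent support. Of 37 listed interferon-stimulated genes of the ISRE type, 35 were tested. Among these 35, 30 were higher and 1 was lower, beside 32.6% and 31.9% of all genes. A further 4 were not called, and the median log2 fold change was 1.02. RSAD2, ISG20 and IFITM1, antiviral effectors, had the largest values, 3.07, 3.04 and 2.35 (edgeR FDR = 4.98e-17, 1.03e-12 and 5.9e-07), and ISG20 was 2.37 without 786-O-VHL replicate 2. The gene called lower was OAS3, an antiviral synthetase, which fell from 164 and 154 CPM to 70.9 and 89.4 CPM (log2 fold change -0.92, edgeR FDR = 2.5e-11). The list of the interferon gamma and IRF1 type held 25 genes, of which 17 had a row and 16 were tested. Of these 16, 13 were higher, 1 was lower and 2 were not called, against the same background, with a median of 0.82. The 13 include CASP1, whose limit is given below. WARS1 (listed as WARS), a tRNA synthetase induced by interferon gamma, rose from 143 and 155 CPM to 525 and 532 CPM (log2 fold change 1.83, edgeR FDR = 1.81e-19). CASP1, the inflammasome protease, had 5 counts in each 786-O-Ctrl library and 17 and 97 in 786-O-VHL (log2 fold change 4.33, edgeR FDR = 3.28e-10). It too passed the filter only through 786-O-VHL, so its call is no evidence of its own. GBP4, a GTPase, had a log2 fold change of 1.67 (edgeR FDR = 2.99e-08). TAPBP, the gene called lower, had between 4 and 62 counts in the row used, has a further identifier in the table, and lost its call in 3 of the alternatives.

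The list of the IL-6 and STAT3 type held 15 genes, of which 13 were tested. All 13 were called, 9 higher and 4 lower, where 64.5% of all genes were called. The 9 include LBP, whose limit is given below. STAT3 mRNA itself did not pass. The median log2 fold change was 0.52, while the summed level of the list went down from between 2865 and 2919 CPM to between 2516 and 2627 CPM. CEBPB and JUNB, transcription factors induced by IL-6, rose by log2 fold changes of 1.49 and 1.38 (edgeR FDR = 5.39e-17 and 2.51e-16). LBP, an acute phase protein, had 18 and 3 counts without VHL and 13 and 85 with it (log2 fold change 3.07, edgeR FDR = 1.77e-07). Its value was 4.53 without the deeper and 2.49 without the shallower 786-O-Ctrl library. Only 786-O-VHL had enough counts in both libraries for the filter, so the call of LBP is no evidence of its own. ICAM1, an adhesion molecule, went from 198 and 201 CPM to 61.1 and 65.9 CPM (log2 fold change -1.62, edgeR FDR = 1.8e-17). CCND1, a cyclin that HIF also regulates in these cells, fell by 1.37 on the log2 scale, and BIRC5, a mitotic survival protein, fell by 0.91 (edgeR FDR = 2.55e-17 and 1.22e-12). Genes of these lists have other regulators as well, and their levels do not measure the activity of any STAT or IRF protein.

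**Figure D4:**
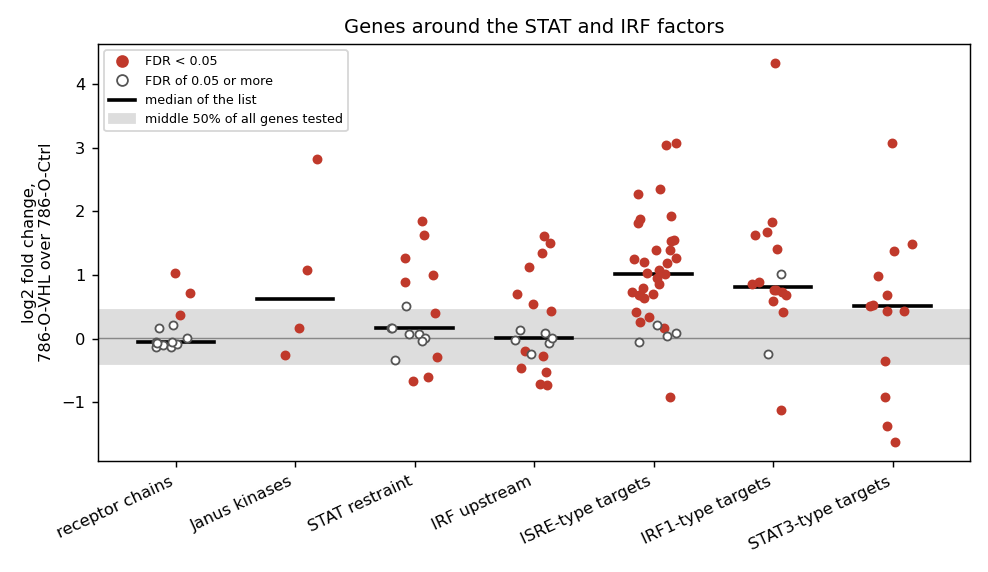
Each point is the log2 fold change of 1 tested gene in 7 lists around the STAT and IRF factors, filled where the edgeR FDR was under 0.05. Black lines are list medians, from -0.055 for receptor chains to 1.02 for ISRE-type targets, and the grey band is the middle 50% of all genes tested, from -0.40 to 0.46.

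The genes whose levels over the 4 libraries followed IRF1 most closely were FYN, EREG and MIA2. Likeness was the Euclidean distance between log2 CPM values centred on each gene's mean, which was 0.0315 for FYN, 0.104 for EREG and 0.11 for MIA2. FYN, a Src family kinase, had 14.5 and 17.3 CPM in 786-O-Ctrl and 61.7 and 64.3 CPM in 786-O-VHL, so that it shared with IRF1 the lower value in the deeper 786-O-Ctrl library. With 4 libraries this is a description of their profiles only.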

How the data were processed

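Libraries made with a TruSeq RNA kit, 2 from each subline, were analysed from the raw read counts per gene that the authors deposited. The submitters' processing notes name CASAVA, STAR and hg19. The counting tool, the annotation and whether strand was used: not given in the sources used here. Both 786-O-Ctrl columns carry the same replicate name, so they are told apart only by depth.

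The quasi-likelihood test of edgeR 4.0.16 (R 4.3.3) was run on these counts with TMM scaling, after edgeR's filter on low counts (minimum 10), which removed 577 of 12912 genes. The Benjamini-Hochberg FDR covered the remaining 12335 genes, and a gene was called at 0.05. Standard errors and 95% intervals came from the same fit. Its calls, but not its intervals, were tried on simulated data in which few genes differed. That trial therefore does not show how reliable the calls are here, where most genes were called. DESeq2 1.42.0, limma 3.58.1 (voom) and the settings described at the end were alternatives. The members and gene lists were chosen with earlier results of these data known. Genes named were all members, other STAT and IRF genes, Janus kinases, the 3 called genes per direction with the largest change in each list, the 3 nearest to IRF1, and VHL. BCL2L12, IFNAR1 and IFNAR2 were added after their values were seen, as was the use of all exons as an alternative length. Not every gene that this rule would name is reported here. A symbol with several identifiers was represented by the one with most counts. Positions are from GENCODE on GRCh37, and promoters from RefSeq.

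The replicates of a group differed by more than counting noise (chi-square per degree of freedom 2.25 and 2.76). The shallowest library had 7.89 times fewer counts than the deepest, so it limits precision for genes with few counts.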

Additional observations from a re-analysis of the deposited data

How the results depend on the processing

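Every member kept the direction of its change in each of the 15 alternatives that gave it a value. After each library was thinned to the shallowest, the number of members that were lower went from 2 to 1, since IRF3 no longer passed, and 3 were higher, since IRF7 was not tested. IRF7 also had no value with at least 10 counts in every library or with the GC content and exon length offset, and it lost its call without 786-O-VHL replicate 2. With library totals alone STAT3 passed as well, which made 5 higher members, and the calls over all genes went from 4017 higher and 3939 lower to 5077 and 3097. The pathway lists, with 118 genes in the table, held 71 higher and 16 lower calls, beside 32.6% and 31.9% of all genes tested. Under the alternatives the list calls were 65 to 80 higher and 12 to 17 lower. These totals pool lists that differ from each other, as given above. In the main setting the higher calls include JAK3, CASP1 and LBP, which passed the filter only through 786-O-VHL.

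The sign turned for uncalled genes only. STAT5B had a log2 fold change of 0.053 with library totals alone. IRF8 had 0.24 with DESeq2, 0.083 with limma-voom, 0.10 with library totals alone and -0.48 to 1.08 with 1 library left out.

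The 786-O-Ctrl columns carry no number that pairs them with 786-O-VHL, so a replicate block was fitted in both pairings, and the deviations of the columns did not correlate across genes (-0.00721). With the replicate block 4 members were higher and 2 lower in either pairing, 71 list genes were higher and 15 or 16 lower, and IRF8 had a log2 fold change of 0.31 in the pairing of the deeper 786-O-Ctrl library with 786-O-VHL replicate 2. Depth limits IRF7, STAT4, STAT5A and IRF8 most.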
